A study of Mus musculus with 32 samples.

Results

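The jejunum and the ileum of wild-type mice were compared with each other, as the middle and the last segment of the small intestine. The comparison covered the 1222 genes that were listed in both the jejunum table and the ileum table, out of 2413 genes in the jejunum table, 5187 in the ileum table and 6378 in either. It used 8 of the 32 libraries of the series, 4 of wild-type (WT) jejunum and 4 of WT ileum. All 8 came from male mice with an intact Khk gene, which encodes ketohexokinase, the enzyme that opens fructose breakdown; the series set such mice against Khk-deficient mice, whose libraries were not used here. The strain, the age and the diet of the mice are not given in the sources used here, and neither is whether one mouse gave both segments.

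The 1222 genes are not a neutral sample of the transcriptome. The authors had deposited genes past an unadjusted threshold in their own test of Khk-deficient against WT mice, since the largest p was 0.0499901 in the jejunum table and 0.0499788 in the ileum table. Those tests read the same WT libraries that are compared here. Of the 1222 genes, 1112 were protein-coding. The genes outside the overlap of the tables, among them many textbook markers of both segments, were not analysed here.

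The small intestine divides its work along its length. The jejunum takes up most dietary fat, sugar and fat-soluble vitamins, and its enterocytes package fat into chylomicrons, the lipoprotein particles that leave through the lymph. The ileum reclaims bile acids through a chain of uptake, binding and export proteins, and its crypts hold many Paneth cells, which secrete antimicrobial alpha-defensins. Transcription factors of the GATA and HNF4 families are known for their part in proximal and enterocyte identity, and HOX genes for position along the body axis.

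The reads of the shared genes ranged from 2250066 to 3393402 in the jejunum libraries and from 2274780 to 2867583 in the ileum libraries. Levels below are CPM of the shared genes, read counts scaled to a common library total, after TMM scaling, a correction for differences in library composition. They can be set side by side between libraries for 1 gene; levels of different genes are compared only after division by gene length in kilobases. Replicate 1 stood apart in both segments. On the principal component that held 54.2% of the variance the segments separated, and on the next, with 30.05%, replicate 1 of jejunum lay at 17.95 and replicate 1 of ileum at 19.39, while the other libraries lay between -11.56 and 2.22. In replicate 1 the deviation of a gene from its segment mean fell with gene length. The Spearman rho across 1185 genes was -0.53 in jejunum and -0.61 in ileum, against -0.08 to 0.63 in the other libraries. Replicate 4 had a rho of 0.53 in jejunum and 0.63 in ileum. Each mean includes the library itself, so a trend in 1 library pushes the others of its segment the other way. The part of replicate 1 in single results was not tested apart from leaving it out.

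**Figure D1:**
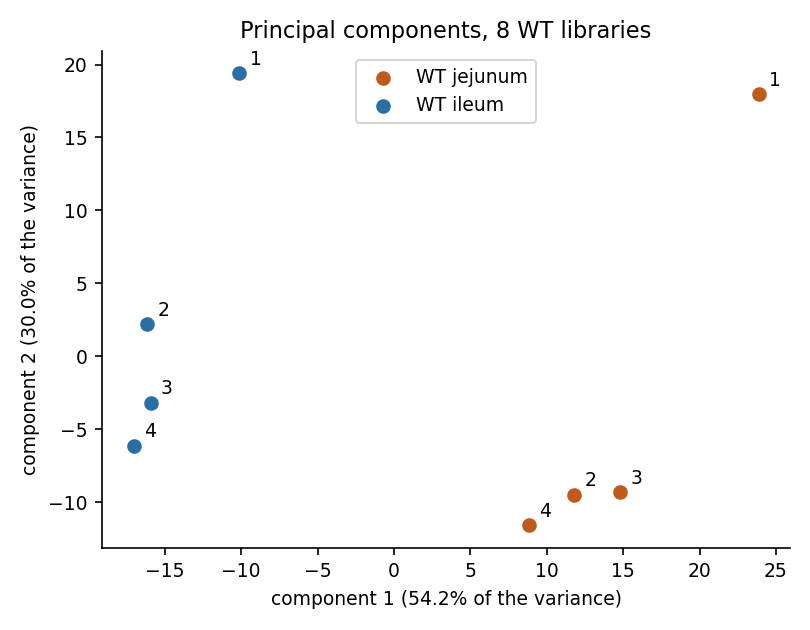
Each point is 1 of the 8 WT libraries, placed by the first 2 principal components of the log2 levels of the tested genes, with the replicate number beside it and the share of the variance on each axis. The segments separate along the horizontal axis (54.2%), and replicate 1 of both segments lies above the others on the vertical axis (30.05%).

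Segment differences were tested with edgeR's quasi-likelihood test and Benjamini-Hochberg adjustment over all 1184 genes that passed the filter on low counts, and the p-values below are from this test unless another fit is named. At an adjusted p under 0.05, 220 genes differed, which is 18.6% of those tested. Of these, 114 were higher in jejunum (9.63%) and 106 were higher in ileum (8.95%). The difference was at least 2-fold for 58 genes higher in jejunum and 59 higher in ileum, and at least 8-fold for 5 and 9. The 4 jejunum values and the 4 ileum values did not overlap for 294 genes (24.8% of those tested), of which 209 were among the 220. The median log2 difference, jejunum minus ileum, was -0.08 over all tested genes. With library totals left without the TMM factor the median moved to -0.23 and the calls split into 82 higher in jejunum and 144 higher in ileum; with the totals implied by the deposited FPKM it moved to 0.09 and the split to 119 and 73.

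Deviations from the segment mean correlated at 0.21 to 0.66 between libraries of the same replicate number, and at up to 0.40 between differently numbered ones. A term for the number raised the count of calls. With this replicate block edgeR called 520 genes (43.9% of those tested), 241 higher in jejunum (20.4%) and 279 higher in ileum (23.6%), and all 220 genes named by the fit without the block were among them. Without the block but with replicate 1 of both segments left out the count was 460. The part of replicate 1 in the rise with the block was not tested. The count was 127 without ileum replicate 2, with 60 higher in jejunum and 67 higher in ileum. It was 120 without ileum replicate 3, with 61 and 59. Without jejunum replicate 3, 62 genes remained higher in ileum.

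**Figure D2:**
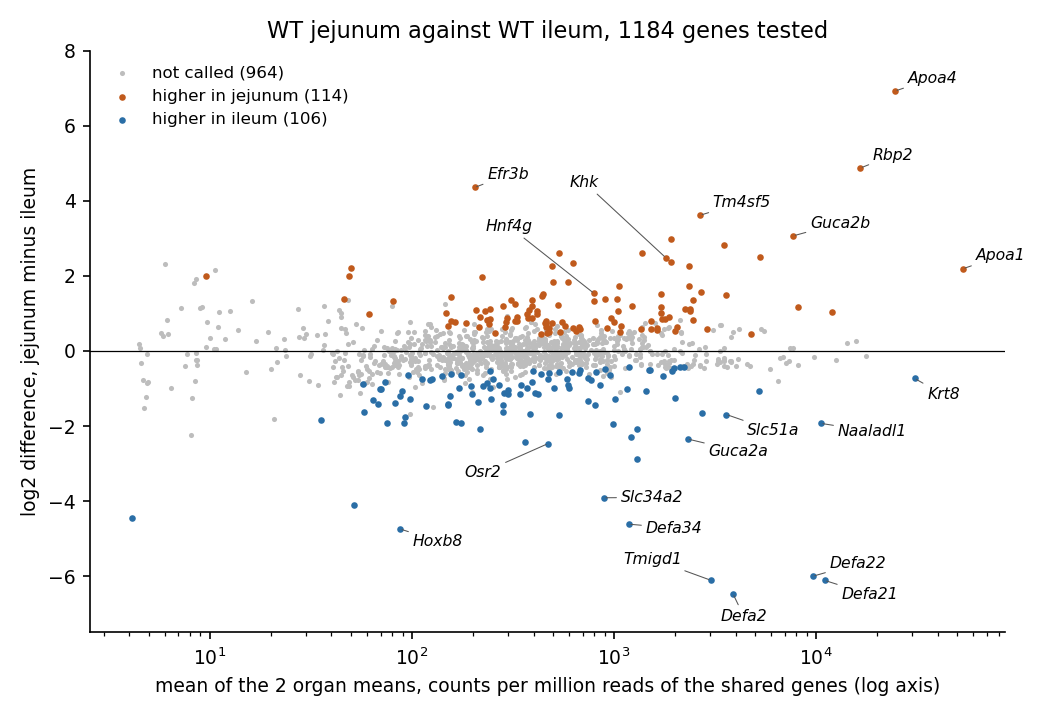
Each point is 1 of the 1184 tested genes. The horizontal axis is the mean of the jejunum mean and the ileum mean in CPM of the shared genes (log axis), the vertical axis the log2 difference of jejunum minus ileum; orange points were higher in jejunum (114), blue points higher in ileum (106) and grey points not called (964). Apoa4 lies highest, at 6.93, and the alpha-defensin gene Defa2 lowest, at -6.47.

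The 2 genes furthest towards the jejunum handle dietary fat and vitamin A. Apoa4 (ENSMUSG00000032080, chromosome 9, 46240696 to 46243459, plus strand) encodes apolipoprotein A-IV, which enterocytes place on chylomicrons. Its levels in jejunum replicates 1 to 4 were 60153, 47707, 51015 and 36473, and in ileum replicates 1 to 4 they were 635, 127, 379 and 466. The lowest jejunum library was far above the highest ileum library, and the means were 48837 ± 9780.1 and 402 ± 212 (SD, n = 4). The log2 difference was 6.93 ± 0.50 (SE), a 122-fold difference, with an edgeR adjusted p of 7.89e-06. Exons of the antisense gene Gm10680 cover 34.8% of the length of Apoa4, and since the strand setting of the libraries is unknown, reads of the pair cannot be told apart.

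Rbp2 (ENSMUSG00000032454, chromosome 9, 98486115 to 98509781, plus strand) encodes the cellular retinol-binding protein of enterocytes, which carries newly absorbed vitamin A. It stood at 55699, 24437, 25596 and 22429.7 in the 4 jejunum libraries and at 1837, 693, 1056 and 781 in the 4 ileum libraries. Replicate 1 was highest in both segments, and no jejunum value came near an ileum value. The log2 difference was 4.88 ± 0.44 (SE, edgeR adjusted p = 3.13e-05).

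Apoa1 encodes apolipoprotein A-I, the main protein of high-density lipoprotein, and lies on chromosome 9 with 10229 bases between it and Apoa4. It was 87545 ± 36187 in jejunum and 19160.3 ± 6993 in ileum (SD, n = 4), a log2 difference of 2.19 ± 0.33 (SE, edgeR adjusted p = 0.00121). Although the neighbours moved in the same direction, they did so to different degrees. Per kilobase of gene length the level of Apoa1 was 2.05 to 3.44 times that of Apoa4 in the jejunum libraries and 38.6 to 185 times in the ileum libraries. Apoa1, Apoa4 and Rbp2 together held 12.9% to 19.6% of the reads of the shared genes in jejunum and 1.54% to 2.99% in ileum.

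The promoters of Apoa4 and Rbp2 are shown because these are the genes with the largest differences towards the jejunum. The sequences are from RefSeq (GRCm38.p6) and run 5′ to 3′ from 250 bases before to 50 bases after the annotated start. Capitals mark the GATA motifs AGATAA and TGATAA and the HNF4 core CAAAGTC, on either strand. Apoa4 (chr9:46240594-46240893, plus strand) holds none of them. Rbp2 (chr9:98490287-98490586, plus strand) holds 1 HNF4 core 132 bases before the start and 1 GATA motif 43 bases before it, both read on the opposite strand. The Rbp2 window lies inside the gene coordinates given above, whose first base is 98486115, so the start used here is a later one. Rbp2 was chosen after its values were seen.
Apoa4: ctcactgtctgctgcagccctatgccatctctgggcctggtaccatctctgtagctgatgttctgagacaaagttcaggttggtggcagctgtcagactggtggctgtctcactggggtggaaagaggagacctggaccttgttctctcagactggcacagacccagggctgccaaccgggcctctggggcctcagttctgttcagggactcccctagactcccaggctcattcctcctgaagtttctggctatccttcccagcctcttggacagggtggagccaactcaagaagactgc
Rbp2: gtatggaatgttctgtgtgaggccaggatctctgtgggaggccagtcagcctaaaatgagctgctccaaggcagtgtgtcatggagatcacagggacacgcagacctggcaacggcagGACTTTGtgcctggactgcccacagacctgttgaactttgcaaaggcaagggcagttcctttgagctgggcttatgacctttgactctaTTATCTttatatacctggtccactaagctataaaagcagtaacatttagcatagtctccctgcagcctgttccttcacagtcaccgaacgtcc

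Over all promoters of this length in the RefSeq table, 20.96% of 27025 genes held a GATA motif and 4.995% held the HNF4 core. Of the tested genes, 874 had a promoter in the table. A GATA motif was present in 13 of 83 genes higher in jejunum (15.7%), in 14 of 78 higher in ileum (17.9%) and in 11.4% of those not called. The HNF4 core, a motif added after the data had been seen, was present in 12 of 83 genes higher in jejunum (14.5%), in 4 of 78 higher in ileum (5.13%) and in 3.09% of those not called. These shares describe the windows and were not tested.

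Transcription factors also differed. Hnf4g encodes a nuclear receptor of the HNF4 family that acts in enterocytes. It was at 813, 1271, 1059.8 and 1597 in jejunum replicates 1 to 4 and at 395, 307, 493 and 442 in ileum replicates 1 to 4. Every jejunum value lay above every ileum value, although replicate 1 was the lowest jejunum library here, and the log2 difference was 1.53 ± 0.23 (SE, edgeR adjusted p = 0.00102). Hoxb8, a posterior HOX gene, lay the other way, at 3.12 to 8.82 in jejunum and 125 to 222 in ileum, with a log2 difference of -4.74 ± 0.35 (SE, edgeR adjusted p = 9.42e-06). Osr2, which encodes an odd-skipped zinc-finger factor, was 144 ± 43.0 in jejunum and 799 ± 155 in ileum (SD, n = 4; edgeR adjusted p = 4.55e-05). Of the 53 transcription factors listed for intestinal identity, 5 were shared genes. Of these, 1 was higher in jejunum (9.63% over all tested genes) and 2 in ileum (8.95%). Ppara, the fatty acid sensor, and Prdm1, a repressor that times the switch to the adult epithelium, did not pass, with log2 differences of 0.78 and -0.45 (edgeR adjusted p = 0.189 and 0.246). With the replicate block their adjusted p was 0.014 and 0.0401, and Ppara passed without jejunum replicate 1 (edgeR adjusted p = 0.0142).

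Fat absorption genes lay together on the jejunum side. Their median log2 difference was 1.36 against -0.08 over all tested genes. Of 44 listed genes 5 were shared, and all 5 were higher in jejunum (9.63% over all tested genes). Besides Apoa4 and Apoa1 these were Mogat2, the monoacylglycerol acyltransferase that rebuilds triglyceride in the enterocyte, at 3551 ± 511 and 1381 ± 299 (SD, n = 4; edgeR adjusted p = 5.70e-04), Pla2g12b, which acts in lipoprotein secretion, and Plin3, a coat protein of lipid droplets. Pla2g12b had a log2 difference of 0.98 ± 0.22 (SE) and Plin3 of 0.85 ± 0.14 (SE). In bulk tissue, fewer cells of a type and less RNA per cell cannot be told apart, here and in every result on cell type genes. Fatty acid oxidation genes did not share a direction, since Hadh, a dehydrogenase of mitochondrial fatty acid breakdown, was higher in jejunum (1.48 ± 0.17 SE, edgeR adjusted p = 1.44e-04) and Acads, which acts on short-chain substrates, was higher in ileum (-0.56 ± 0.13 SE, edgeR adjusted p = 0.0132). Acads lost its call without jejunum replicate 3, ileum replicate 2 or ileum replicate 3 (edgeR adjusted p up to 0.0556) and with the totals implied by the FPKM (0.0907). Ech1 and Ppara of that list did not pass, and Ech1 had a log2 difference of 0.32 (edgeR adjusted p = 0.129, with the replicate block 0.0197, without ileum replicate 1 0.0436, in DESeq2's Wald test 0.0329).

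Sugar genes were on the same side. Khk (ENSMUSG00000029162, chromosome 5, 30921431 to 30931248, plus strand) was at 4783, 2563, 2659 and 2254 in the jejunum libraries and at 763, 468, 525 and 437 in the ileum libraries. Replicate 1 was highest in both segments, and the groups did not overlap. The log2 difference was 2.48 ± 0.28 (SE), a 5.59-fold difference with an edgeR adjusted p of 1.44e-04. Mgam, the brush-border maltase-glucoamylase, was 16110.2 ± 1189 in jejunum and 7861 ± 1361 in ileum (SD, n = 4; edgeR adjusted p = 0.00171). Fbp2, a fructose-bisphosphatase of gluconeogenesis, was 2.24-fold higher in jejunum (edgeR adjusted p = 1.53e-04), and Dera, an aldolase of deoxyribose phosphate, was 1.51-fold higher (edgeR adjusted p = 0.0241). These were all 4 of the shared genes among the 42 listed for sugar digestion and breakdown, with a median log2 difference of 1.10. Over all tested genes 9.63% were higher in jejunum. The call of Dera was lost without jejunum replicate 2 or any of ileum replicates 2, 3 and 4 (edgeR adjusted p up to 0.078). It was also lost with the trend in gene length taken out (edgeR adjusted p = 0.197). That correction, here and below, removes each library's trend against its own segment mean and leaves a trend between the segments in place.

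The list of proximal enterocyte genes, which overlaps the fat and sugar lists, gave 5 shared genes of 46, with a median log2 difference of 2.48. All of them were higher in jejunum (9.63% over all tested genes). They were Apoa4, Rbp2, Khk, Apoa1 and Mgam. The list of ileal enterocyte genes gave 9 shared genes of 40, with a median of -1.29. Of the 9, 5 were higher in ileum (8.95% over all tested genes) and 4 were not called. Every marker that passed lay on the side of its list. Of the ileal markers not called, Amn and Mep1b had positive log2 differences (0.43 and 0.08), and B4galnt2 and Cela1 negative ones (-0.36 and -0.31). Since the lists were chosen with earlier results of these data known, this is no independent check of the segment labels.

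**Figure D3:**
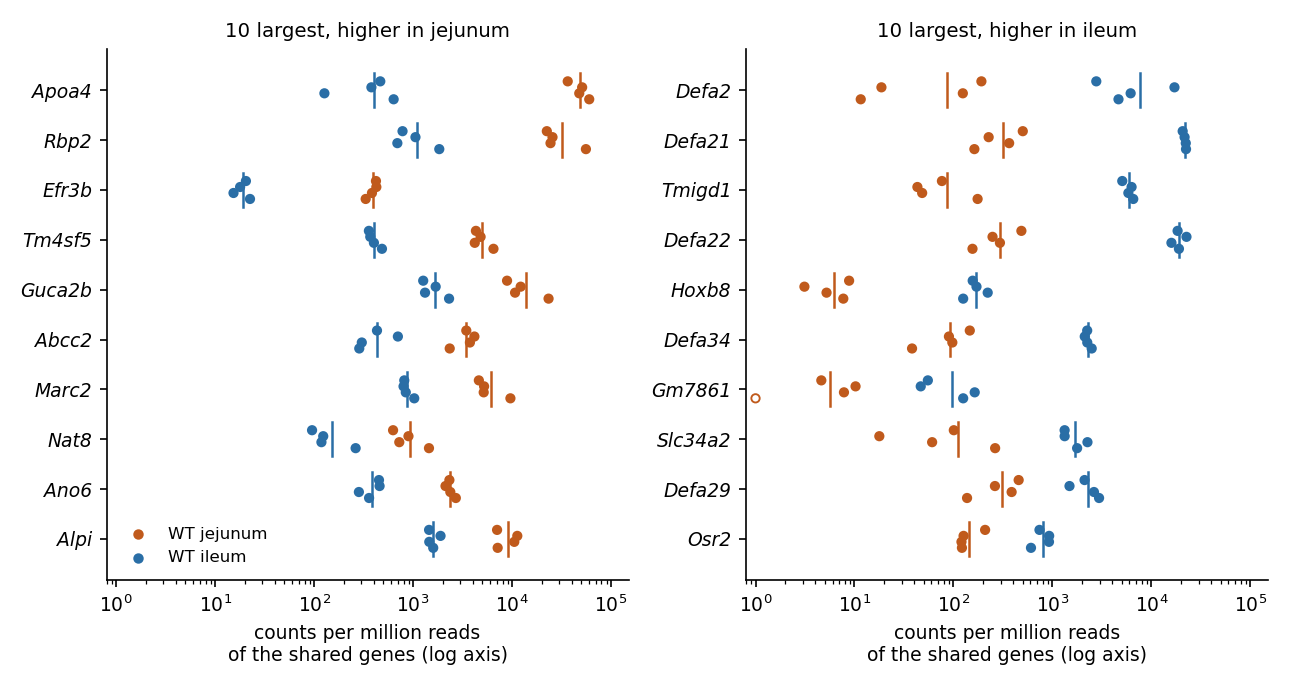
Levels of the 10 genes with the largest differences in each direction, in CPM of the shared genes (log axis). Each point is 1 library (orange, WT jejunum; blue, WT ileum), each vertical bar the mean of 4, and the open circle drawn at 1 stands for a library with no read of Gm7861. The rule that chose the 20 genes asked for no overlap between the jejunum and ileum points, which lie closest for Nat8 (262 in ileum replicate 1 and 627 in jejunum replicate 4).

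Of 18 genes listed for bile acid handling 3 were shared, with a median log2 difference of -1.29. Of the 3, 2 were higher in ileum (8.95% over all tested genes) and 1 higher in jejunum (9.63%). The one higher in jejunum was Abcc2, which had the largest difference of the 3 (2.99). Those higher in ileum, Slc51a and Slc51b, encode the subunits of the transporter that moves bile acids out of the enterocyte towards the blood. Slc51a was at 2061, 1484, 1754 and 1509 in the jejunum libraries and 6672, 5348, 5342 and 4659.7 in the ileum libraries, and Slc51b at 713, 402, 656 and 573 and 1818, 1565, 1251 and 1100.4. The segments did not overlap for either gene, and the log2 differences were -1.69 ± 0.17 and -1.29 ± 0.22 (SE, edgeR adjusted p = 9.45e-05 and 0.00202). Per kilobase of gene length the level of Slc51a was 0.584 to 0.818 times that of Slc51b in jejunum and 0.757 to 0.947 times in ileum. Exons of Pcyt1a cover 17.7% of the length of Slc51a, and exons of Rasl12 cover 12.8% of that of Slc51b, on the opposite strand.

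The other genes of the ileal list that passed were Osr2, described above, Nts and Naaladl1. Nts, the gene of the hormone neurotensin, was 82.6 ± 38.6 in jejunum and 349.8 ± 24.3 in ileum (SD, n = 4; edgeR adjusted p = 6.16e-04). Naaladl1, a peptidase of the ileal brush border, was 4395 ± 1186 and 16741 ± 2012 (SD, n = 4; edgeR adjusted p = 1.26e-04). The members that did not pass were Mep1b, a meprin subunit, Amn, which anchors the receptor of vitamin B12, B4galnt2, a glycosyltransferase, and Cela1, an elastase. Their log2 differences were 0.08, 0.43, -0.36 and -0.31, and with the replicate block B4galnt2 passed at an edgeR adjusted p of 0.0273. Dpep1, a brush-border dipeptidase of the peptide list, had a log2 difference of -0.43 (edgeR adjusted p = 0.201) and passed with the block (0.0117), without jejunum replicate 1 (0.0170) and without the TMM factor (0.00819).

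Abcc2 encodes an efflux pump for conjugated compounds at the brush border and stood on the jejunum side, at 2342, 3746, 4159 and 3445 against 286, 303, 701 and 431. The log2 difference was 2.99 ± 0.31 (SE, edgeR adjusted p = 1.06e-04). It was 1 of 3 genes higher in jejunum among the 5 shared xenobiotic genes, of 75 listed (9.63% over all tested genes). Ces2e, a carboxylesterase, was 2.25-fold higher (edgeR adjusted p = 6.10e-04), and Mgst3, a glutathione transferase of membranes, was 2.17-fold higher (edgeR adjusted p = 0.0136), though not without ileum replicate 2 or 3 (edgeR adjusted p up to 0.0537). Mgst1 and Ahr, the aryl hydrocarbon receptor, had log2 differences of 0.13 and 0.54; Ahr passed with the block (edgeR adjusted p = 0.0187), without jejunum replicate 1 (0.0124), with the totals implied by the FPKM (0.0144), with the length trend taken out (0.0275) and in DESeq2's Wald test (0.00842). With replicate 1 of both segments left out, Mgst1 passed at a log2 difference of 0.32 (edgeR adjusted p = 0.0220) and Ahr at an edgeR adjusted p of 0.00467.

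Alpha-defensins were among the genes furthest towards the ileum. Of 39 Paneth cell genes listed, 5 were shared genes, all alpha-defensins, with a median log2 difference of -6.0. All 5 were higher in ileum (8.95% over all tested genes). Defa21 (ENSMUSG00000074447, chromosome 8, 21025545 to 21026516, plus strand) was at 163, 365, 227 and 502 in jejunum and at 22379.5, 22255, 21648 and 20709 in ileum. Its 4 ileum libraries lay close together, whereas the jejunum libraries spread from replicate 1, the lowest, to replicate 4, the highest. The log2 difference was -6.11 ± 0.37 (SE, edgeR adjusted p = 2.86e-06). Defa22 followed it at 156, 295, 248 and 486 and 18983, 15942, 22618 and 18403, a 64.1-fold difference (edgeR adjusted p = 2.86e-06). The transcripts of Defa21 and Defa22 are 99.3% identical, so the split of reads between them is uncertain.

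Defa2 (ENSMUSG00000096295, chromosome 8, 21378515 to 21379495, plus strand) was less even. It was at 11.6, 124, 18.7 and 192 in the jejunum libraries and at 4652, 6172, 17109 and 2775 in the ileum libraries, with ileum replicate 3 highest. Its log2 difference of -6.47 ± 1.00 (SE, edgeR adjusted p = 0.00128) became -5.71 without ileum replicate 3 and -7.22 without jejunum replicate 4. Defa34 was 93.0 ± 44.2 in jejunum and 2278 ± 156 in ileum, and Defa29 was 311 ± 141 and 2297 ± 642 (SD, n = 4). The 5 genes together held 0.0386% to 0.188% of the reads of the shared genes in jejunum and 4.95% to 6.92% in ileum.

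A pair of unnamed gene models on that side resembled Defa29. The transcript of Gm7861 is 96.1% identical to that of Defa29 and 96.4% identical to that of Gm7849, so reads may be shared among them. Gm7861 had no read in jejunum replicate 1, was at 4.62 to 10.2 in the other jejunum libraries and at 46.7 to 164 in ileum, a log2 difference of -4.12 ± 0.77 (SE, edgeR adjusted p = 0.00425). Gm7849, named after its values were seen, had a log2 difference of -2.08 ± 0.35 (SE).

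The promoters of Defa2 and Defa22 are shown to compare these genes. Defa22 (chr8:21162027-21162326, plus strand) and Defa21 have 300 identical bases, and Defa2 (chr8:21378267-21378566, plus strand) is 97.7% identical to them. Each holds 1 GATA motif, in capitals, 96 bases before the start. Defa22 was chosen after its values were seen.
Defa2: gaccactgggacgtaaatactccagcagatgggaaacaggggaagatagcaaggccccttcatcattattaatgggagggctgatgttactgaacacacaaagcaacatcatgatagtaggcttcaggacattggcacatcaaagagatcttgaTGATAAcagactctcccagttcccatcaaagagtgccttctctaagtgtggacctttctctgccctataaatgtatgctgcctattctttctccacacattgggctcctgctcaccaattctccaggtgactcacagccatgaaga
Defa22: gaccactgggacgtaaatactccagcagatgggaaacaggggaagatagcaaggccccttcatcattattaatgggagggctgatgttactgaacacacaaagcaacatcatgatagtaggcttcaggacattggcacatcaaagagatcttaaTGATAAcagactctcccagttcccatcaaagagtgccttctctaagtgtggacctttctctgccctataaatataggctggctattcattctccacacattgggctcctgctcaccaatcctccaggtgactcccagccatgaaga

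Guanylin and uroguanylin went in opposite directions. Both are peptide hormones that bind guanylate cyclase C on the epithelium and stimulate fluid secretion. Guca2b, the uroguanylin gene (ENSMUSG00000032978, chromosome 4, 119656607 to 119658954, minus strand), was at 23353, 10713, 12202 and 8891 in jejunum and at 2307, 1319, 1689 and 1264 in ileum. Guca2a, the guanylin gene (ENSMUSG00000023247, chromosome 4, 119637704 to 119639471, plus strand), was at 1101, 601, 583 and 758 in jejunum and at 5267, 3215, 3777 and 3206 in ileum. Replicate 1 was highest in each of these groups, and neither gene overlapped between segments.

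The log2 difference was 3.07 ± 0.34 (SE, edgeR adjusted p = 1.33e-04) for Guca2b and -2.34 ± 0.25 (SE, edgeR adjusted p = 1.26e-04) for Guca2a. Per kilobase of gene length the level of Guca2b was 8.0 to 14.5 times that of Guca2a in the jejunum libraries and 0.269 to 0.305 times in the ileum libraries. The narrow range in ileum held in all 4 replicates, replicate 1 included. The genes are neighbours on chromosome 4, with 17135 bases between them, and point towards each other. Guca2a was the 1 gene of 3 shared goblet cell genes (of 18 listed) that passed (18.6% over all tested genes). Tff3, a trefoil peptide of goblet cells, and Zg16, a goblet cell lectin, had log2 differences of -0.48 and 0.27 (edgeR adjusted p = 0.0877 and 0.313). Tff3 passed with the block (edgeR adjusted p = 0.0089), without the TMM factor (0.00708) and with the length trend taken out (0.0396).

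The promoters of the neighbours are shown since they moved in opposite directions; both were chosen after their values were seen. Guca2a (chr4:119637482-119637781, plus strand) holds 2 GATA motifs, in capitals, the first of them 144 bases before the start. Guca2b (chr4:119658896-119659195, minus strand) holds neither motif. Their windows are 45.7% identical.
Guca2a: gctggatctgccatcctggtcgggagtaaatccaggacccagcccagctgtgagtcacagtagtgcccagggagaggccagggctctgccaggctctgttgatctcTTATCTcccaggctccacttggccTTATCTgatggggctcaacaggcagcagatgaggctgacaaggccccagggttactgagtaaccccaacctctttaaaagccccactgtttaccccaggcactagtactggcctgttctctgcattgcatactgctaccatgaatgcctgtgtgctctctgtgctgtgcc
Guca2b: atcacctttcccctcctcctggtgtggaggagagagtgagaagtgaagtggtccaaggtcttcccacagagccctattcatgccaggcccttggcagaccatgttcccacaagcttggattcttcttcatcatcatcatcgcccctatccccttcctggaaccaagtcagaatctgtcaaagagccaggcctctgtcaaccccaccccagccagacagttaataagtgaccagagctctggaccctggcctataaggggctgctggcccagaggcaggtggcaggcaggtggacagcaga

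**Figure D4:**
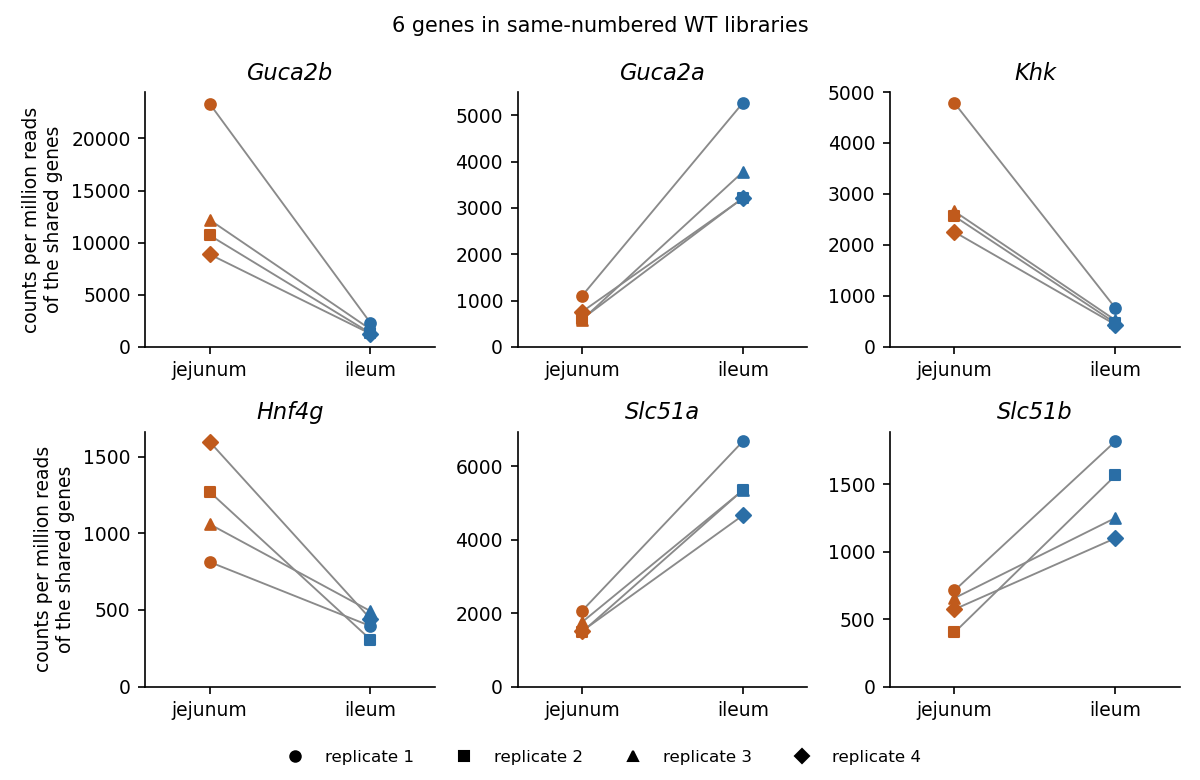
Levels of 6 genes in CPM of the shared genes (vertical axis, from 0) in WT jejunum (orange) and WT ileum (blue), with lines joining libraries of the same replicate number. All 4 lines fall from jejunum to ileum for Guca2b, Khk and Hnf4g, and all 4 rise for Guca2a, Slc51a and Slc51b.

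Among the genes listed for absorption of vitamins and minerals the directions were mixed. Of 46 listed genes 8 were shared, 3 were higher in jejunum (9.63% over all tested genes) and 3 higher in ileum (8.95%). Those higher in jejunum were Rbp2, described above, Slc23a2 and Cftr, and those higher in ileum were Slc34a2, Atp2b1 and Slc4a4. Slc34a2, the sodium-phosphate cotransporter, was at 264, 60.9, 17.8 and 101 in jejunum and at 1776, 2259.7, 1329 and 1328 in ileum. Replicate 1 was the highest jejunum library by a wide margin, yet it lay below all ileum libraries, and the log2 difference of -3.91 ± 0.65 (SE, edgeR adjusted p = 0.00195) became -4.75 without it. Slc23a2, a vitamin C transporter, was 394 ± 52.9 in jejunum and 171 ± 15.1 in ileum, and Atp2b1, a calcium pump, was 936 ± 138 and 1943 ± 386 (SD, n = 4; edgeR adjusted p = 4.47e-04 and 0.00205).

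Calls for ion transporters of secretion were less stable. Cftr, the chloride channel, was 1.69-fold higher in jejunum (edgeR adjusted p = 0.0258) and lost its call without any of jejunum replicates 2, 3 and 4 or ileum replicate 2 (edgeR adjusted p up to 0.0844) and without the TMM factor (0.139). Slc4a4, a bicarbonate cotransporter, was 1.43-fold higher in ileum (edgeR adjusted p = 0.0334) and kept its call only when the library left out was ileum replicate 2 (edgeR adjusted p otherwise up to 0.13). It also lost the call under DESeq2's size factors (0.0687), the totals implied by the FPKM (0.232) and the length correction (0.233). Slc39a5, a zinc importer, had a log2 difference of 0.36 and passed with the block (edgeR adjusted p = 0.018) and without ileum replicate 1 (0.0484).

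Iron homeostasis is the question behind the series. The list of iron and copper genes gave 6 shared genes of 59. Of these, 2 were higher in jejunum (9.63% over all tested genes), none was higher in ileum (8.95%) and 4 were not called. Mt1, the metal-binding metallothionein, was at 4461, 2449, 1938 and 1264 in jejunum and at 1356, 1007, 640.0 and 549.6 in ileum, with replicate 4 of jejunum below replicate 1 of ileum. Its log2 difference was 1.51 ± 0.40 (SE, edgeR adjusted p = 0.0242, with the replicate block 1.06e-05). Ncoa4, the receptor that delivers ferritin for breakdown, was at 162, 423, 429 and 318 and 149.7, 139.8, 139 and 180.0, so that jejunum replicate 1 lay within the ileum range (edgeR adjusted p = 0.0188). The call of Mt1 was lost without any of ileum replicates 2, 3 and 4 (edgeR adjusted p up to 0.0742). That of Ncoa4 was lost without jejunum replicate 2, ileum replicate 2 or ileum replicate 3 (edgeR adjusted p up to 0.061) and without the TMM factor (0.0675).

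Ftl1, the ferritin light chain that stores iron, was 4108 ± 1404 in jejunum and 2554 ± 339 in ileum (SD, n = 4) with an edgeR adjusted p of 0.0599. It passed with the block (0.00322), without jejunum replicate 4 (0.0418), without ileum replicate 1 (0.0389), without the TMM factor (0.0299), with the length trend taken out (0.0367) and in DESeq2's Wald test (0.0176). Trf, the transferrin gene, and Neo1, a co-receptor in hepcidin signalling, had log2 differences of -0.64 and -0.20 and did not pass. Exons of Gm20425 on the same strand cover 63.5% of the length of Trf. Exons of Gm10252 on the opposite strand cover 26.5% of that of Ftl1.

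Sterol genes also split. Abca1, which exports cholesterol from the cell, was at 402, 298, 444 and 267 in jejunum and 39.9, 88.1, 113 and 119.9 in ileum, a log2 difference of 1.97 ± 0.32 (SE, edgeR adjusted p = 0.00187). Fdft1, squalene synthase, was 2.70-fold higher in ileum (edgeR adjusted p = 2.80e-04). Exons of Ctsb on the opposite strand cover 18.3% of the length of Fdft1. Npc2 and Ebp of the same list did not pass and had log2 differences of -0.22 and -0.10.

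Other genes with large differences have varied roles. On the jejunum side, Efr3b, which anchors a lipid kinase at the plasma membrane, was at 332, 384, 425 and 421 against 22.5, 15.3, 17.9 and 20.4, with 4.36 ± 0.20 (SE) on the log2 scale (edgeR adjusted p = 5.15e-07). Tm4sf5, a four-span membrane protein, was 4947 ± 1056 against 403 ± 57.3 (SD, n = 4; edgeR adjusted p = 1.98e-06). Alpi, intestinal alkaline phosphatase of the brush border, was 8999 ± 2218 against 1598 ± 207 (SD, n = 4; edgeR adjusted p = 1.68e-05). Marc2, a mitochondrial reductase, Nat8, an acetyltransferase of cysteine conjugates, and Ano6, a phospholipid scramblase, were 7.07-fold, 6.16-fold and 6.14-fold higher in jejunum. On the ileum side, Tmigd1, an adhesion molecule of epithelia, was at 175, 48.3, 43.2 and 76.5 in jejunum and at 6558, 5853, 6307 and 5078 in ileum, with -6.11 ± 0.47 (SE) on the log2 scale (edgeR adjusted p = 9.52e-06). Its difference was about that of Defa21, and was larger than those of Defa34 (-4.62) and Defa29 (-2.89).

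**Figure D5:**
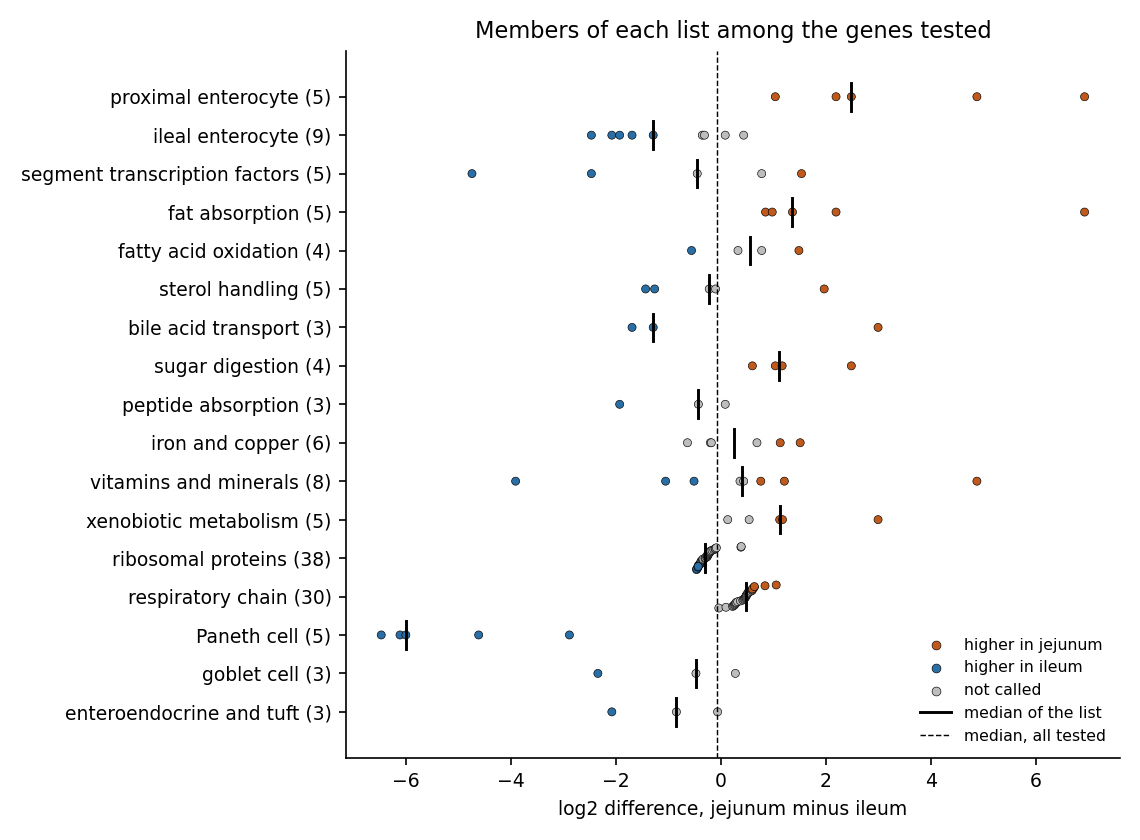
Log2 difference of jejunum minus ileum for the shared members of 17 gene lists, with the number tested in parentheses. Points are genes (orange, higher in jejunum; blue, higher in ileum; grey, not called), black bars the median of each list, and the dashed line the median of all tested genes (-0.08); the Paneth cell list lies furthest left (median -6.0) and the proximal enterocyte list furthest right (2.48).

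Log2 differences of the respiratory chain genes were mostly small and positive. Of 30 shared genes of the respiratory chain and ATP synthase, 29 had a positive log2 difference, against 43.7% of all tested genes, with a median of 0.47 against -0.08 over all tested genes. As higher in jejunum 4 of the 30 passed, against 9.63% of all tested genes. Among these were Ndufa4 (1.05 ± 0.21 SE), Sdhc (0.84 ± 0.19) and Atp5c1 (0.60 ± 0.15), with edgeR adjusted p of 0.00586, 0.0121 and 0.0226. With the replicate block 23 of the 30 passed, all higher in jejunum (20.4% over all tested genes), and with replicate 1 of both segments left out 26 passed, all higher in jejunum (21.2% over all tested genes). The median stayed positive under each scaling, from 0.29 without the TMM factor to 0.62 with the totals implied by the FPKM. The median over all tested genes was -0.23 and 0.09 under these 2 scalings. Atp5c1 lost its call with those totals (edgeR adjusted p = 0.0523), and without any of jejunum replicates 2 and 3 and ileum replicates 2, 3 and 4 (edgeR adjusted p up to 0.0705). Cox4i1 and Cox6a1 of cytochrome oxidase had about the same difference as Atp5c1 (0.59 and 0.60) but a wider spread, with replicate 1 at 10660.1 of Cox4i1 in jejunum and 6641 in ileum, against 4555 to 5423 and 3073 to 3998 in the other libraries. With the block both passed (edgeR adjusted p = 0.00218 and 0.00243), and Cox6a1 passed without ileum replicate 1 (0.0368).

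Log2 differences of the genes of cytosolic ribosomal proteins were mostly small and negative. Of 38 shared genes, 2 had a positive log2 difference, against 43.7% of all tested genes, and the median was -0.30. The 3 that passed are a share no higher than the 8.95% of all tested genes that were higher in ileum. Rps23, Rpl35 and Rpl26 passed as higher in ileum (-0.46, -0.44 and -0.43; edgeR adjusted p = 0.0338, 0.0466 and 0.0368). With the replicate block 18 of the 38 passed, all higher in ileum (23.6% over all tested genes). No gene of the list passed with DESeq2's size factors or with the totals implied by the FPKM. The list median under these was -0.23 and -0.15, against -0.01 and 0.09 over all tested genes. Relative to the median of all tested genes the list lay at -0.22 to -0.24 under each scaling. Without the TMM factor 14 genes of the list passed, all higher in ileum (12.2% over all tested genes). The 3 calls were each lost when ileum replicate 1, 2, 3 or 4 or jejunum replicate 2, 3 or 4 was left out (edgeR adjusted p up to 0.199), and that of Rpl35 also without jejunum replicate 1 (0.0988). Exons of Wdr38 on the opposite strand cover 66.2% of the length of Rpl35.

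Markers of cells other than enterocytes were few among the shared genes. None of the 32 stem cell and proliferation genes or of the 40 T, natural killer and myeloid genes was a shared gene, and of the 32 B and plasma cell genes only Prdm1 was. Smooth muscle and stroma gave Myl9, a myosin light chain, as 1 of 37. It was at 1598, 1345, 988 and 1312 in jejunum and at 6112, 3250.0, 4065 and 3060.2 in ileum, a log2 difference of -1.65 ± 0.24 (SE, edgeR adjusted p = 0.00102). Its ileum values did not overlap its jejunum values, and the part of muscle in the ileum calls was not tested. Vip, a neuropeptide of enteric neurons, had a log2 difference of -0.20.

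Enteroendocrine and tuft cell genes gave Nts as the gene that passed, while Sct, the secretin gene, and Dclk1, a tuft cell kinase, had log2 differences of -0.06 and -0.85. Dclk1 passed with the block (edgeR adjusted p = 0.00706), without ileum replicate 2 (0.0312) and in DESeq2's Wald test (0.0269). The 3 shared adipocyte genes, Cfd, Plin1 and Retn, summed to 32.1 to 478 in the jejunum libraries and 134 to 824 in the ileum libraries. None of them passed, with log2 differences of -0.97, -0.78 and -0.64. With the block Cfd and Plin1 passed as higher in ileum (edgeR adjusted p = 0.02 and 0.0224), as did 23.6% of all tested genes. The haemoglobin genes Hbb-bs, Hba-a1 and Hba-a2 summed to 205 to 574 in jejunum and 138 to 279 in ileum, and Hbb-bs passed as higher in jejunum (edgeR adjusted p = 0.0444). That call was lost without jejunum replicate 2 or any of ileum replicates 2, 3 and 4 (edgeR adjusted p up to 0.135), without the TMM factor (0.0981) and in limma-voom (0.0708). With the block Hbb-bs and Hba-a1 passed as higher in jejunum (edgeR adjusted p = 0.00361 and 0.00862), as did 20.4% of all tested genes. Pancreatic acinar genes gave Cela1 and Zg16, both named above and neither called. Of the clock genes Per2 and Per3 were shared and had log2 differences of 0.35 and 0.26; Per2 passed with the block (edgeR adjusted p = 0.0251). Of the 35 antimicrobial and barrier genes Zg16 and Il22ra1, an interleukin-22 receptor chain (-0.08), were shared, and neither passed.

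Per kilobase of gene length, the segments differed in which shared genes were most abundant. In jejunum Apoa1 led with 70829 CPM per kilobase, before Rbp2 with 33306, while in ileum Defa21 led with 52029, before Defa22 with 45314. Krt8, the keratin of simple epithelia, was among the 10 most abundant in both, at 11806 per kilobase in jejunum and 19610.0 in ileum. It was 1.66-fold higher in ileum (edgeR adjusted p = 0.0115), and lost its call without jejunum replicate 3 (0.0914) and with the totals implied by the FPKM (0.173). Lgals4, a galectin of enterocytes, stood at 7273 and 8049 per kilobase and did not pass (edgeR adjusted p = 0.568).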

How the data were processed

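Polyadenylated RNA of jejunum and ileum was sequenced, 4 WT libraries each; mapping used HISAT2 2.0.5 and GRCm38/mm10, per the submitters' processing notes. The labels' protocols name dUTP (directional) or dTTP (non-directional) for the second strand without saying which was used, so the strandedness is unknown. The authors deposited raw read counts, FPKM values (used only for the library totals they imply), gene lengths and p-values for each segment, per the file headers. File positions equalled GENCODE M21 for 95.3% of the 1222 shared genes.

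Counts were fitted with edgeR 4.0.16 in R 4.3.3, with TMM scaling on the shared genes, their summed counts as library size, filterByExpr and Benjamini-Hochberg adjustment at 0.05. SE is the log2 difference divided by the square root of F. The labels do not say whether replicates are separate mice, so p-values measure the spread between these libraries. The lowest chi-square per degree of freedom between libraries of 1 segment was 14.2, so none was a duplicate. Deviations from the segment mean correlated at 0.21 to 0.66 between same-numbered libraries, highest for replicate 1. All were over 0.1, the limit for taking the number as pairing them. This comes from the data, not from the labels. Differently numbered libraries correlated at -0.60 to 0.40. Some of them passed the limit too, so it does not single out same-numbered libraries. Jejunum replicate 2 correlated more with ileum replicates 3 (0.32) and 4 (0.38) than with ileum replicate 2 (0.21). Whether the block pairs libraries of 1 mouse is therefore unknown. On simulated counts for this comparison (1179 genes), 81.6% of 2-fold and 98.0% of 4-fold changes were recovered, and 5 of 982 unchanged genes were called. These counts were drawn independently for each gene and library, without the deviation of replicate 1 or a trend with gene length. The rates hold for such counts and not for the real libraries. Alternatives also used DESeq2 1.42.0 and limma 3.58.1.

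Members and lists were chosen with earlier results of these data known. Named genes are the 10 largest differences per direction among protein-coding calls with a mean of at least 100 counts and no overlap, up to 6 called and 3 not called members per list, and Khk; others are said to be chosen after their values were seen. Guca2a and Guca2b are named under this rule; Krt8, Lgals4 and Gm7849 are not. Some genes that the rule names are not reported here.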

Additional observations from a re-analysis of the deposited data

Results flagged for a closer look

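In each group of 4 libraries the highest or lowest value was examined for a gap to its neighbour wider, relative to the group's range, than Dixon's critical value for 4 samples. Chance alone puts about 1 in 20 groups past this limit. Of 224 groups, for the named genes and the library sums and shares, 22 were past it, and 20 of the 22 extreme values came from replicate 1. Over all tested genes 11.1% of 2368 groups were past it, 89.7% of them because of replicate 1. No explanation for replicate 1 was tested.

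Values here are in CPM of the shared genes. In jejunum, replicate 1 was flagged above the other 3 for Rbp2 (55699), Marc2 (9614), Khk (4783), Mgam (17879), Amn (2138) and Pla2g12b (746). It was also flagged above them for Dpep1 (4549), Ndufa4 (1858), Cox4i1 (10660.1), Cox6a1 (7625), Tmem86a (1512) and Tmem86b (1276). The flag weighs a gap against the group's range and not its size. Replicate 1 was 2.31 times the mean of the other 3 for Rbp2 and 1.15 times for Mgam. It was flagged below them for B4galnt2 (655) and Sec16b (531). Replicate 1 also had the most reads of the shared genes among the jejunum libraries, 3393402. Its total implied by the FPKM was the lowest of the jejunum libraries, 14797693. The shared genes held 22.9% of that total, against 13.8% to 14.8% in the other jejunum libraries. In ileum, replicate 1 was flagged above the others for Nat8 (262), Hadh (2141), Sdhc (1573) and Hspb6 (787) and below them for Prdm1 (93.1). The remaining values came from other libraries: Osr2 was flagged as higher in jejunum replicate 4 (209) and Slc4a7 as lower in ileum replicate 2 (139). Of these genes, those called between the segments kept their call with replicate 1 of both segments left out.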

How the results depend on the processing

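The count of 220 genes (114 higher in jejunum, 106 higher in ileum) moved most with the replicate block, to 520 (241 and 279). The block is a term for the replicate number. Next came the fit with replicate 1 of both segments left out, at 460 (252 and 208). With 1 library left out at a time it ran from 120 to 270 in all, from 60 to 155 higher in jejunum and from 59 to 115 higher in ileum. The other scalings, tools and filters gave 192 to 290. DESeq2's Wald test gave 290 and limma-voom 220, and taking out the trend with gene length gave 274. The share of calls higher in jejunum was 51.8% as reported, 36.3% without the TMM factor and 62.0% with the totals implied by the FPKM. None of the 220 genes changed sign under any of these settings. Of the 78 called genes named in the text, 65 kept their call under every setting; the others are named with their values above. The block moved 16 of the 110 named genes past the threshold and none below it. Leaving out replicate 1 of both segments moved 10 past it (Ppara, Ech1, Dpep1, Ahr, Mgst1, Tff3, Slc39a5, Ftl1, Cox4i1 and Cox6a1, edgeR adjusted p from 0.00112 to 0.0311) and none below it. Calls higher in jejunum came from shorter genes, with a median length of 2595 bases against 3993 for those higher in ileum and 4026 for all tested genes. The depth of the whole libraries was available only as the totals implied by the FPKM. These ran from 14797693 to 16418607 in jejunum and from 17297866 to 22856732 in ileum, so every ileum total lay above every jejunum total. Genes outside the overlap of the tables could not enter the scaling.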

Other observations

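Some of the larger differences fell outside the lists; the genes in this part were chosen after their values were seen, so they are given as values. Lpgat1, an acyltransferase of lysophospholipids, was higher in jejunum, at 3231, 3001, 3459.6 and 3159.9 in the jejunum libraries and at 789, 513, 600.5 and 578 in the ileum libraries (edgeR adjusted p = 7.48e-06). Tmem86a and Tmem86b, which encode lysoplasmalogenases, were 3.59-fold and 4.84-fold higher (edgeR adjusted p = 0.00127 and 1.06e-04), with replicate 1 highest among the jejunum libraries for both. Hsd17b11, a protein of lipid droplets, was 2.99-fold higher and Acot13, a thioesterase of acyl-CoA, 1.82-fold (edgeR adjusted p = 1.33e-04 and 0.0115). Gpx4, the glutathione peroxidase of membrane lipids, was 3623 ± 1799 against 1085 ± 382 (SD, n = 4; edgeR adjusted p = 0.00569), and Msra, which repairs oxidised methionine, was 2.33-fold higher (edgeR adjusted p = 0.00121). The pseudogene Gpx4-ps2 had nearly the same log2 difference as Gpx4 (1.85 and 1.74). Whether reads of the pair are separate was not tested. Slc4a7, a bicarbonate transporter, was 5.06-fold higher in jejunum, as was Sec16b, of the secretory pathway, by 2.89-fold and Dio1, which activates thyroid hormone, by 2.76-fold. Cgref1, which lies 1894 bases from Khk on chromosome 5, was 4.82-fold higher, close to the 5.59-fold of Khk.

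Neu1, the lysosomal sialidase, was higher in ileum, at 421, 458, 314 and 461 in jejunum and at 2016, 2157, 2253 and 1641 in ileum (edgeR adjusted p = 9.52e-06). Rnf152, a ubiquitin ligase of lysosomes, was 5.34-fold higher in ileum, and Pglyrp1, which binds bacterial peptidoglycan, was 406 ± 81.3 against 1573 ± 339 (SD, n = 4; edgeR adjusted p = 1.06e-04). Ehf, an epithelial Ets factor, was 3.29-fold higher in ileum. Ppp1r14a, an inhibitor of myosin phosphatase, was 70.7 ± 23.8 and 262 ± 59.1 (SD, n = 4), and Hspb6, a small heat shock protein of muscle, at 171, 139.6, 109.6 and 134 and 787, 291, 292 and 337. Replicate 1 was the highest ileum library for both, and without it the log2 difference of Hspb6 was -1.07 instead of -1.62. Lgals1, Pdlim4 and Igfbp5 were 2.73-fold, 3.06-fold and 2.21-fold higher in ileum, with edgeR adjusted p of 0.00425, 0.00972 and 0.00202. Osr1, a factor of mesenchyme related to Osr2, was at 9.25 to 19.2 in jejunum and 36.1 to 91.3 in ileum, and its log2 difference of -1.84 became -1.24 with replicate 1 of both segments left out.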
